A study of Homo sapiens with 4 samples.

Results

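The S100 proteins form a family of small calcium-binding proteins, and 10 of their genes are described here in T-47D cells: S100A8, S100A9, S100P, S100A7, S100A6, S100A10, S100A11, S100A13, S100A14 and S100A16. A probeset of the array is a group of probes placed within a single exon. Each of the 10 had at least 1 probeset that carried its symbol and no other in the platform annotation. A further 5 S100 genes had such a probeset and were not among the 10. The 10 genes were read by 30 of the 232479 probesets, and 9 of them were among the 15719 genes that passed the filter on dim probesets. They were chosen from the family with the mimic-minus-control differences of these same arrays already known. Those differences are therefore given as a description, with no p-value for any of the 10, and nothing is read from how many of them differed.

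T-47D is an established breast cancer cell line that keeps luminal features and hormone receptors. Total RNA was hybridised to 4 Affymetrix exon arrays. The 2 mimic arrays came from cells transfected, with TurboFect reagent, with a mimic of the artificial microRNA p-27-5p at 200 nM, and the 2 control arrays from cells given a pre-miR negative control. All cells were grown in DMEM with serum and transfected, so no array shows untransfected cells, and the labels give neither a time after transfection nor separate cultures for the replicates. The p-values below therefore rest on array-to-array spread alone, and that spread may be technical.

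Most S100 proteins work as pairs of small subunits, each with a pair of calcium-binding EF-hands, and calcium opens a surface that grips a partner protein. Inside cells they act on annexins, the cytoskeleton and signalling proteins. Released from cells, several act as alarmins on receptors such as RAGE and TLR4. S100A8 and S100A9 together make calprotectin, which withholds zinc and manganese from microbes. It is abundant in neutrophils and is induced in stressed epithelium. Most of the genes sit side by side in chromosome 1q21, next to genes of the cornified envelope of skin, while S100P lies on chromosome 4.

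All levels below are log2 values. Levels of different genes cannot be ranked on these arrays, because probes differ in how strongly they bind, and each gene is compared only with itself. Genes of liver and neurons served as a gauge of background. Of 16 listed, 12 passed the filter, and their control means ran from 3.78 to 5.71 with a median of 4.60. The lowest of these, CYP3A4, passed the filter only through mimic array 1. Their mean level was 4.92 and 4.43 on control arrays 1 and 2 and 5.19 and 4.85 on mimic arrays 1 and 2, so the dimmest signals lay lowest on control array 2. All 12 luminal markers passed the filter, with control means from 8.97 to 12.40, and limma called 0 of them, with 4 lower and 0 higher at an unadjusted p under 0.05. The arrays correlated with r from 0.966 to 0.985 over all probesets.

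The S100 genes fell into 3 kinds. S100A8, S100A9 and S100P were far higher with the mimic, from control gene values within the background range. Some probesets of S100P read above that range in control, though the range is of gene values and not of single probesets. S100A10 and S100A16, well above background, had slightly lower values on each of their probesets. S100A6, S100A7, S100A11 and S100A13 had gene differences between -0.11 and 0.28, and S100A14 lay between, with a higher gene value but both group means in the background range. Its brightest probeset, 4045672, had means above that range, 6.46 in control and 7.42 in mimic arrays. RNA of a whole culture was read, so more cells with a transcript and more of it per cell cannot be told apart. In the fit over all 15719 genes, limma with Benjamini-Hochberg adjustment called 3 of the 9 genes tested as higher, where 1.52% of all genes were called higher. It called 0 as lower, where 0.789% of all genes were called lower, with 1 lower at an unadjusted p under 0.05. Since the choice of genes was made with these values known, the counts carry no weight of their own.

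**Figure D1:**
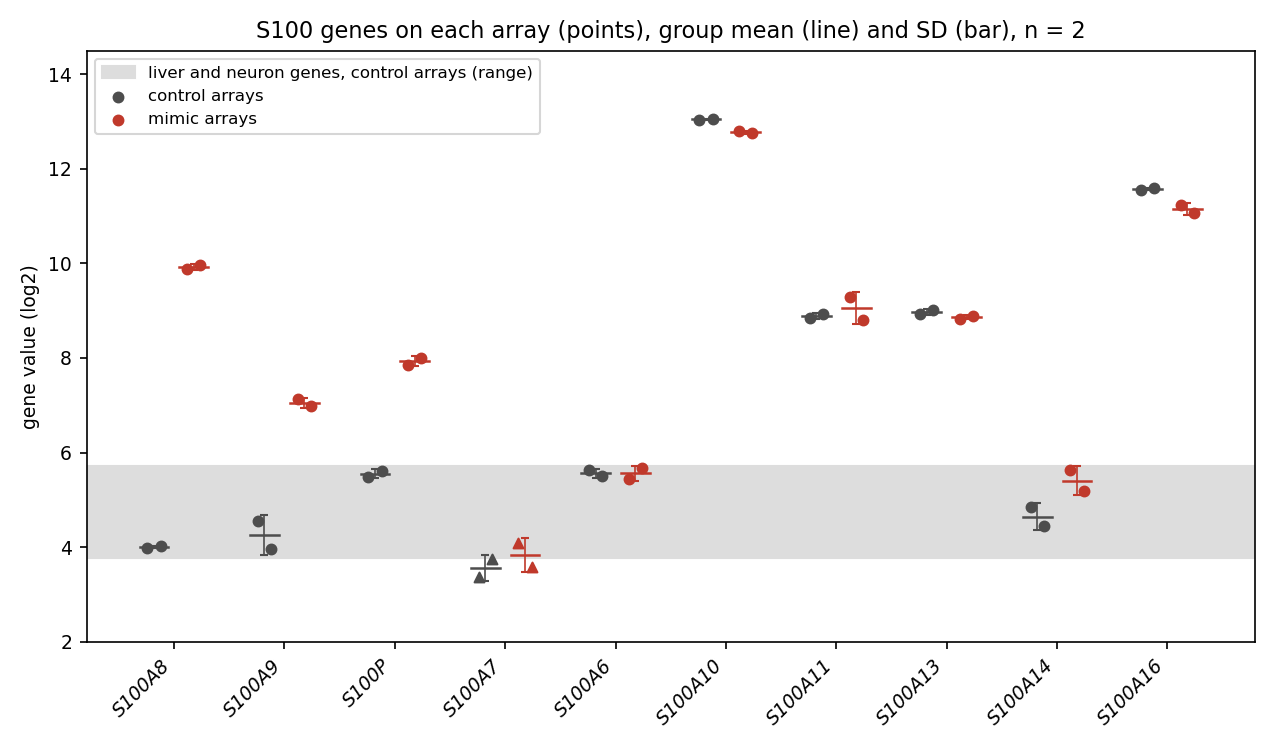
Gene value on a log2 scale (vertical axis) of each S100 gene (horizontal axis), with 1 point per array, a line at the mean of the 2 arrays of a group and a bar of 1 SD; grey is control, red is mimic, and triangles mark S100A7, whose only probeset did not pass the filter. The shaded band is the range of control means of the liver and neuron genes that passed the filter, 3.78 to 5.71. S100A8, S100A9 and S100P have gene values within it in the control arrays and above it in the mimic arrays.

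S100A8, the smaller subunit of calprotectin, read 3.98 and 4.02 on the control arrays and 9.88 and 9.98 on the mimic arrays. The gene values of the 4 arrays split cleanly by group, with almost no spread within either. The difference was 5.93 (SE 0.121), a 60.9-fold higher value and number 7 of the 15719 genes tested when ordered by difference. Its control level lay within the background range, so the fold may understate the change.

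The 3 probesets of S100A8 moved alike. Probeset 2435994 read 4.98 and 5.48 in control and 10.42 and 10.42 in mimic arrays, a difference of 5.19. Probeset 2435995 went from 3.83 and 3.51 to 9.65 and 9.92, and probeset 2435997 from 3.13 and 3.06 to 9.55 and 9.59, differences of 6.12 and 6.48. The smallest difference was on the probeset with the highest control value. In this order, the control SDs (n = 2) were 0.352, 0.225 and 0.0462. Control array 2 was the higher one on 2435994 and the lower one on 2435995 and 2435997. Averaging these made the control spread of the gene value small. The last 2 of these probesets had control means below the filter level of 4.08 and passed it only through the mimic arrays.

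S100A9, the larger subunit of calprotectin, read 4.55 and 3.95 on the control arrays and 7.12 and 6.97 on the mimic arrays. The mimic arrays were the higher ones, and the control arrays spread more (SD 0.419, n = 2) than the mimic arrays (SD 0.107, n = 2). The difference was 2.80 (SE 0.221), a 6.96-fold higher value. Like S100A8, it had control values within the background range.

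S100A9 was read less evenly than its partner. Probesets 2359666 and 2359667 gave much the same values, with control values of 4.34 and 4.36, and 4.27 and 4.08, against mimic values of 7.59 and 7.54, and 7.55 and 7.54. Their differences were 3.22 and 3.37. Probeset 2359668 read 5.03 and 3.43 in control and 6.23 and 5.85 in mimic arrays, a difference of 1.81 with the control arrays far apart. The remaining 2 probesets did not pass the filter. Probeset 2359669 read 4.43 and 3.76 in control and 4.17 and 3.50 in mimic arrays, and probeset 2359670 read 2.78 and 2.89 against 3.50 and 3.05. With these dim probesets included, the difference of the gene was 1.72, and with its brightest probeset alone 3.22.

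S100P, a placental and epithelial S100 protein that binds ezrin and signals through RAGE when secreted, read 5.48 and 5.62 on the control arrays and 7.86 and 8.01 on the mimic arrays. The arrays of the groups did not overlap. The difference was 2.38 (SE 0.132), a 5.22-fold higher value.

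Of its 4 probesets, 3 were higher and by unequal amounts, and 2 of these had control values above the background range. That range is of gene values, and none was computed for single probesets. Probeset 2717087 read 5.97 and 6.02 in control and 9.65 and 9.42 in mimic arrays, a difference of 3.54. Probeset 2717088 went from 3.39 and 3.82 to 5.74 and 6.36, a difference of 2.44, and passed the filter only through the mimic arrays. Probeset 2717084 had the highest control values, 7.08 and 7.01, and the smallest rise of the 3, to 8.19 and 8.24, a difference of 1.17. Probeset 2717083 did not pass the filter and read 4.94 and 3.51 against 3.40 and 3.76, with the groups overlapping. The difference of S100P was 1.63 with that probeset included and 3.54 with the brightest probeset alone, so its size depended on which probesets were read.

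**Figure D2:**
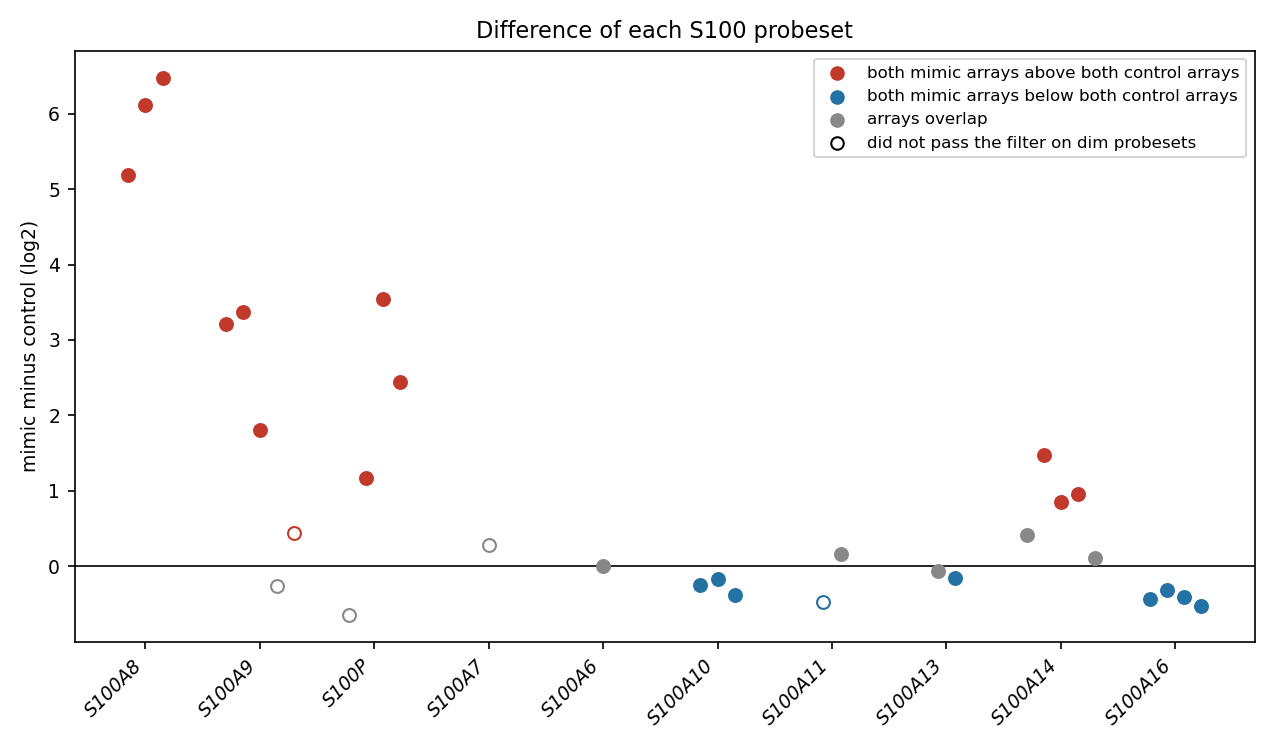
Mimic-minus-control difference on a log2 scale (vertical axis) of each of the 30 probesets, grouped by S100 gene (horizontal axis); red points have both mimic arrays above both control arrays, blue points below, grey points overlap, and open points did not pass the filter. The 3 probesets of S100A8 lie between 5.19 and 6.48, those of S100P spread from -0.64 to 3.54, and all 4 of S100A16 lie between -0.53 and -0.31.

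A link between the differences and the sequence before the transcription starts of these genes was not tested, and the stretches are given as a description. They are from RefSeq (GRCh38.p14), which held a window for all 10 genes and 15 windows in all. The 250 bases before the start are printed 5′ to 3′ on the gene's strand for the 3 genes that were higher. They are also given for S100A10, which was slightly lower, and for S100A7, which lies near S100A8 and had no detectable level. Capitals mark the TATA box, TATAAA; none of the other motifs searched falls in these 5 stretches. For S100A8, which has 3 windows, the one with the TATA box just before the start is given.
S100A8 (chr1:153391074-153391323, minus strand): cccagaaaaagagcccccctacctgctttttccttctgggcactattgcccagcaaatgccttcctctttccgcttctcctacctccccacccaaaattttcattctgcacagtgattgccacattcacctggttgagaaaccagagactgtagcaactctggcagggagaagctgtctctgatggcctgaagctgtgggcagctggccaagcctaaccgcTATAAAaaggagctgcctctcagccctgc
S100A9 (chr1:153357604-153357853, plus strand): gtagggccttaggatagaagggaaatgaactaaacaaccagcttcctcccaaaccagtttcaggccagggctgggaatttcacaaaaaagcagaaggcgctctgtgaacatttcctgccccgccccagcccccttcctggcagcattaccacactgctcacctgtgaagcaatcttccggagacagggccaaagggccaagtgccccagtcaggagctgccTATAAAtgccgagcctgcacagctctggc
S100P (chr4:6693628-6693877, plus strand): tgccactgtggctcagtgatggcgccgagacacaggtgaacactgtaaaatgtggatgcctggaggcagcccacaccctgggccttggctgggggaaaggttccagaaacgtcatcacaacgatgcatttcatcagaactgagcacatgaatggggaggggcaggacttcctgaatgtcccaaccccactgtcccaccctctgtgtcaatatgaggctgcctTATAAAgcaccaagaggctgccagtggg
S100A7 (chr1:153460652-153460901, minus strand): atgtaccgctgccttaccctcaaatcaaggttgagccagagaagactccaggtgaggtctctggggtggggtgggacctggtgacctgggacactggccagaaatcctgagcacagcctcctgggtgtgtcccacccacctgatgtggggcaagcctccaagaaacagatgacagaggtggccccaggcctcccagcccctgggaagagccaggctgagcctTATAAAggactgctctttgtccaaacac
S100A10 (chr1:151993860-151994109, minus strand): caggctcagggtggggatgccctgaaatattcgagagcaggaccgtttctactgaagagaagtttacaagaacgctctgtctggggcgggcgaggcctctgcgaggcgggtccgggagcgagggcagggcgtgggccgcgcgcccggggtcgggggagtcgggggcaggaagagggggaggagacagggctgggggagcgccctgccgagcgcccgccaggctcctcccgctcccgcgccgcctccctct

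S100A8, S100A9, S100P and S100A7 each hold TATAAA with its first base at -29, -29, -28 and -28 from the start, and S100A13 holds it at -29 in its second window. Over all 35116 windows of the same length, 10.72% hold TATAAA on either strand, and 2.21% hold it on the gene's strand with the first base between -35 and -20. The 250 bases of the first 4 of these genes were 53.2% to 58.8% G and C in the windows printed, against 71.2% for S100A10 and a median of 58.0% over all windows. The core of the interferon response element, GAAANNGAA, was found in the most upstream of the 3 windows of S100A8, at -248, and in the window of S100A14, at -241, both on the opposite strand. It is in 6.88% of all windows.

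No window of the 10 genes held the STAT site TTCNNNGAA (6.57% of all windows), the AP-1 site TGANTCA (6.57%) or the progesterone and glucocorticoid response element (0.15%). The NF-kB consensus was in the window of S100A14 (9.96% of all windows) and the C/EBP core, TTGCNNAA, in that of S100A11 (9.05%). Both strands were searched for each motif, and the NF-kB match in S100A14 was found on both strands at the same bases; no matches to different motifs overlapped. A match of letters is not a shown binding site.

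S100A7, psoriasin, an antimicrobial protein of inflamed skin, was read by 1 probeset, which did not pass the filter. It read 3.36 and 3.75 in control and 4.09 and 3.58 in mimic arrays. The groups overlapped. Without the filter the liver and neuron genes had control means from 3.21 to 5.17. All values of S100A7 lay within that range, so no level of S100A7 was detectable. S100A6, calcyclin, which binds the calcyclin-binding protein CACYBP, was also read by 1 probeset, at 5.63 and 5.49 in control and 5.45 and 5.67 in mimic arrays. These values overlapped and lay within the background range, so this probeset bears little on S100A6 in these cells.

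S100A10, or p11, is unusual in the family in that its EF-hands no longer bind calcium, and it forms a complex with annexin A2 at the plasma membrane. It read 13.04 and 13.05 on the control arrays and 12.80 and 12.76 on the mimic arrays, so both mimic arrays were lower. The difference was -0.27 (SE 0.117), with -0.26, -0.17 and -0.38 on its 3 probesets. S100A16, a widely expressed member, read 11.55 and 11.59 in control and 11.24 and 11.07 in mimic arrays, a difference of -0.42 (SE 0.129). Its 4 probesets differed by -0.44, -0.31, -0.40 and -0.53, and on each of them the mimic arrays were the lower ones. A difference of -0.42 is 1.34-fold lower, small beside the increases above. It ranged from -0.51 to -0.31 over the alternatives.

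S100A11, a partner of annexin A1 in membrane repair and in skin, read 8.84 and 8.94 on the control arrays and 9.29 and 8.81 on the mimic arrays, on the 1 of its 2 probesets that passed. Mimic array 1 lay above and mimic array 2 below both controls, and the difference of 0.16 (SE 0.189) was smaller than its error. It became -0.07 without mimic replicate 1 and 0.40 without mimic replicate 2. The other probeset, below the filter level, read 3.93 and 3.75 against 3.08 and 3.65.

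S100A13, which helps export FGF1 and interleukin-1 alpha without a signal peptide, read 8.92 and 9.02 in control and 8.83 and 8.89 in mimic arrays. The difference of -0.11 (SE 0.121) did not exceed its error, though the gene values did not overlap. On its 2 probesets the difference was -0.15, without overlap, and -0.07, with the groups overlapping. S100A14, an epithelial member with a place in cell motility, read 4.84 and 4.44 in control and 5.62 and 5.19 in mimic arrays. The gene values did not overlap, and the difference was 0.76 (SE 0.216). Of its 5 probesets, 3 had both mimic arrays above both controls. Of these, 4045668 and 4045670 had control means of 3.87 and 3.93, under the filter level, and passed it only through the mimic arrays. The brightest, 4045672, read 7.21 and 5.71 against 7.49 and 7.35. The liver and neuron genes had a median difference of 0.24, with 1.26 for APOC3 (adjusted p = 0.295) and 1.02 for CYP3A4 (adjusted p = 0.500). Both were read by 1 probeset past the filter. CYP3A4 had a control mean of 3.78 and passed only through mimic array 1, at 5.98 against 3.62 on mimic array 2. Without the filter the differences were 0.35 for APOC3 and 0.17 for CYP3A4. The part of background in the value of S100A14 was not tested. It passed the threshold in 3 of 12 alternatives, including that without control replicate 1, where the difference was 0.96, and it did not as reported.

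Taken probeset by probeset, 25 of the 30 passed the filter, 5 of them with a control mean under its level. Limma called 7 as higher, where 0.823% of all probesets tested were called higher, and 0 as lower, where 0.0946% were. The 7 belonged to S100A8, with 3, and to S100A9 and S100P, with 2 each. Over all 30, both mimic arrays lay above both control arrays on 13, against 20.6% of all probesets with 1 symbol, and below on 9, against 23.6%. The 9 included all probesets of S100A10 and S100A16.

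The genes whose differences from the control mean were most like those of S100A8 over the 4 arrays, by Euclidean distance, were OAS1 (distance 0.168), IFIT1 (0.268) and IFI44L (0.360), with differences of 5.97, 5.82 and 5.75. For S100A9 they were PARP9 (0.175), ADGRE1 (0.195) and HLA-DRA (0.288), with 2.75, 2.70 and 2.94. For S100P they were PML (0.0230), ISG20 (0.0952) and ERAP2 (0.0979), with 2.37, 2.38 and 2.38. With 4 arrays in 2 groups this likeness mostly reflects the size of the difference.

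Few of the other S100 genes could be read. Of 11 listed, 5 were read by a probeset of their own and 2 passed the filter, and limma called 0 of these, with 0 at an unadjusted p under 0.05. S100Z had 0.29 (adjusted p = 0.483) and S100A7A, which lies between S100A8 and S100A7, had 0.07 (adjusted p = 0.931). S100A12, which lies between S100A9 and S100A8 and is likewise a calgranulin of granulocytes, did not pass the filter. Without the filter its group means were 3.49 in control and 3.58 in mimic arrays. The liver and neuron genes, likewise unfiltered, had control means from 3.21 to 5.17, so both lay within background. The brain protein S100B, at 3.01 and 3.01, and the vitamin D-dependent S100G, at 3.14 and 2.92, did not pass the filter either.

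The neighbours on chromosome 1 were read too. In the RefSeq order, 62 protein-coding genes run from S100A10 to S100A13, 9 of them among the 10 S100 genes. Of the other 53, 18 were tested, and limma called 0 of them, with 2 at an unadjusted p under 0.05, LCE2A with 0.92 (adjusted p = 0.109) and LCE3B with -0.81 (adjusted p = 0.171). Their differences ran from -0.81 to 0.92 with a median of 0.18. This interval was set after the data were seen. PGLYRP4, a peptidoglycan recognition protein next to S100A9, had 0.47 (adjusted p = 0.248), and THEM4, next to S100A10, had -0.51 (adjusted p = 0.174). MRFAP1L1, next to S100P on chromosome 4, had -0.17 (adjusted p = 0.646). Cornified envelope genes had control means from 4.27 to 5.86, at or near background: limma called 0 of 7 tested, with LCE2A alone at an unadjusted p under 0.05, and of the fused-type S100 genes TCHH had 0.17 (adjusted p = 0.706) and CRNN 0.06 (adjusted p = 0.829), with 0 of 2 at an unadjusted p under 0.05.

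Over all genes tested, 7.65% were higher and 12.8% lower at an unadjusted p under 0.05. Limma called 1.52% of all genes higher and 0.789% lower. Counts in the gene lists are to be read beside these shares. The lists were chosen with earlier results of these data known, so their counts are a description. Among the annexins and other binding partners, 1 of 16 rose and 15 did not pass, and the median was -0.28, against 0.0024 over all genes tested. The gene that rose was ANXA1, the partner of S100A11 and a calcium-dependent membrane protein that limits inflammation. It read 5.38 and 5.71 in control and 6.95 and 7.05 in mimic arrays, an increase of 1.46 (SE 0.157, limma adjusted p = 0.0157). ANXA1 missed the threshold without mimic replicate 2 (adjusted p = 0.0523) and with its brightest probeset (adjusted p = 0.108).

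Of the 16, 13 had differences below 0, with 5 lower at an unadjusted p under 0.05 and 0 past the adjusted threshold. AHNAK, the giant scaffold that binds the complex of S100A10 and annexin A2, read 9.38 and 9.29 in control and 8.76 and 8.80 in mimic arrays (-0.56, adjusted p = 0.0914). ANXA2 itself had -0.28 (adjusted p = 0.308), a value close to the -0.27 of S100A10. CACYBP, the partner of S100A6, had -0.35 (adjusted p = 0.211), ezrin, EZR, the partner of S100P, had -0.17 (adjusted p = 0.489), and FGF1, a cargo of S100A13, had 0.24 (adjusted p = 0.412).

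Of the receptors for released S100 proteins, 1 of 9 tested fell and 8 did not pass. CD36, a scavenger receptor that also takes up fatty acids carried by calprotectin, read 6.78 and 6.78 in control and 5.69 and 5.62 in mimic arrays and fell by 1.12 on the log2 scale (SE 0.119, limma adjusted p = 0.0153). CD36 missed the threshold without mimic replicate 1 (adjusted p = 0.0783) or 2 (adjusted p = 0.0931), with the filter at the median of the table (adjusted p = 0.0548) and with its brightest probeset (adjusted p = 0.268). NPTN, a receptor for S100A8, had 0.74 (adjusted p = 0.0579). TLR4 and AGER, the gene of RAGE, had 0.24 (adjusted p = 0.561) and 0.14 (adjusted p = 0.567) and lay within the background range in both groups.

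Of the listed transcription factors known to act on S100 genes, 4 of 16 rose, where 1.52% of all genes were called higher. The other 12 did not pass, and the median was 0.51. A link between these factors and the S100 differences was not tested. At an unadjusted p under 0.05, 9 were higher and 1, PGR, was lower (-0.60, adjusted p = 0.135). IRF1, an interferon-induced activator, read 5.03 and 4.83 in control and 8.27 and 8.31 in mimic arrays and rose by 3.36 (SE 0.134, limma adjusted p = 0.000427). IRF9, the DNA-binding part of the interferon complex ISGF3, rose by 2.23 (SE 0.120, adjusted p = 0.00118).

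KLF4, a factor of epithelial differentiation, rose by 1.55 (SE 0.129, limma adjusted p = 0.0068). CEBPB, which acts on the calprotectin genes in myeloid cells, rose by 0.95 (SE 0.122, adjusted p = 0.0280) and missed the threshold without mimic replicate 1 (adjusted p = 0.166) or 2 (adjusted p = 0.140). It also missed it with the median of probesets (adjusted p = 0.119) and with the brightest probeset (adjusted p = 0.203). STAT3 had 0.84 (adjusted p = 0.0501) and NFKB1 0.69 (adjusted p = 0.0699).

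**Figure D3:**
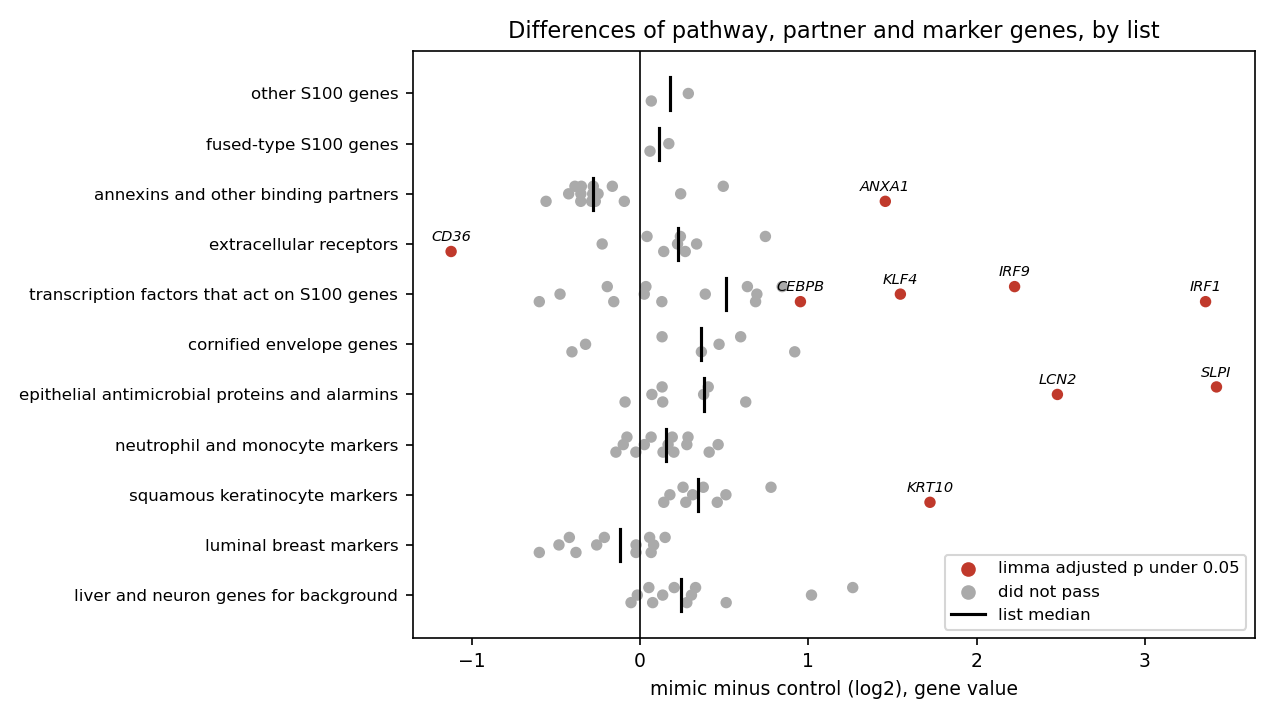
Mimic-minus-control difference of gene values on a log2 scale (horizontal axis) for the tested genes of each list (vertical axis), with the list median as a black bar; red points passed the threshold and are named, grey points did not. ANXA1, CD36, IRF1, IRF9, KLF4, CEBPB, SLPI, LCN2 and KRT10 passed, and the neutrophil and monocyte markers lie between -0.14 and 0.46.

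Other defence proteins of epithelium were higher in part. Of 9 tested antimicrobial proteins and alarmins, 2 rose and 7 did not pass, with a median of 0.38. SLPI, a secreted inhibitor of neutrophil elastase that passed the filter only through the mimic arrays, read 3.35 and 3.55 in control and 6.77 and 6.98 in mimic arrays and rose by 3.43 (SE 0.147, limma adjusted p = 0.000544). LCN2, the iron-siderophore trap lipocalin, read 4.48 and 4.17 against 6.48 and 7.13 and rose by 2.48 (SE 0.250, adjusted p = 0.0129). The control means of both were at or under the background range.

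Calprotectin is best known from neutrophils and monocytes, so markers of those cells were read beside it. Limma called 0 of 14 tested, with CD14 (0.46, adjusted p = 0.182) alone at an unadjusted p under 0.05. Their mean level was 5.34 and 5.06 on control arrays and 5.31 and 5.35 on mimic arrays, and the defining granule genes MPO, ELANE and CEACAM8 had -0.03 (adjusted p = 0.940), 0.17 (adjusted p = 0.657) and 0.07 (adjusted p = 0.833). The median difference of the list was 0.15, against 0.24 for the liver and neuron genes.

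Of 10 squamous keratinocyte markers tested, 1 rose, and 3 were higher at an unadjusted p under 0.05. KRT10, a keratin of differentiating epidermis, rose by 1.72 (SE 0.117, limma adjusted p = 0.00281). But its difference was 0.22 with the filter at the median of the table (adjusted p = 0.260). With the brightest probeset it turned to -0.19 (adjusted p = 0.608). TP63, a factor of basal epithelium, had 0.78 (adjusted p = 0.0671), and DSG3, a desmosomal cadherin, 0.38 (adjusted p = 0.243). KRT1, the epidermal partner of KRT10, had 0.27 (adjusted p = 0.506), and KRT5 and KRT14 of the basal layer had 0.14 (adjusted p = 0.643) and 0.26 (adjusted p = 0.437). The mean level of the list was 5.44 and 5.01 on control arrays and 5.73 and 5.72 on mimic arrays, and all 10 differences were above 0. Of the 12 liver and neuron genes tested, 10 were above 0 too. The median difference was 0.34 for the squamous list and 0.24 for the liver and neuron genes.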

How the data were processed

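Gene expression was measured on 4 exon arrays, 2 per group. The authors deposited log2 values, 1 per probeset and array. The submitters' processing notes name Partek, RMA and hg18, without versions or order; the interquartile ranges, 4.18 to 4.52, differ between arrays. Symbols came from the platform annotation and were updated through a RefSeq table. Of the probesets, 216780 had 1 symbol, 2335 several and 13364 none.

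A gene's value averaged its 1-symbol probesets, leaving out those whose 4-array mean fell under 4.08, the percentile 25 of all values. The mimic-minus-control contrast was fitted in limma (version 3.58.1, R version 4.3.3) with lmFit and eBayes, two-sided, with 2 residual degrees of freedom and Benjamini-Hochberg adjustment over all features and a threshold of 0.05. SE is that of the moderated fit. The fit was tested on simulated data. The members and lists were chosen with earlier results of these data known. Named genes are the S100 genes, list genes past the threshold or with the smallest p, neighbours on chromosome 1, and the 3 genes nearest in pattern to S100A8, S100A9 and S100P; other list genes and the neighbours of S100P were named after their values were seen. Alternatives were a block for the replicate number, array scaling, other filters and probeset summaries, an intensity trend, and each array left out. Figures were drawn with matplotlib 3.10.9. The number of arrays limits the precision; signal over background was judged from the liver and neuron genes.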

Additional observations from a re-analysis of the deposited data

How the results depend on the processing

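S100A8, S100A9 and S100P kept their direction in every alternative that gave them a value, 12, 11 and 12 of them. Their differences ran from 5.19 to 6.12, from 1.72 to 3.34 and from 1.63 to 3.54. The alternatives used the same arrays whose values were known when the genes were chosen, so these ranges are a description only. S100A9 had no value with the stricter filter. S100A10, S100A13, S100A14 and S100A16 kept their direction in 12 of 12, and S100A6 and S100A11 did not. Leaving out each array in turn gave 172 to 1691 genes called, 618 to 928 probesets called, and 7 to 23 higher and 0 to 4 lower genes of the other lists, against 363, 1503, 8 and 1 as reported; the lowest count of genes was without mimic replicate 1 and the highest without control replicate 1.

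Without a filter 1433 genes passed, with 16 higher and 3 lower in the other lists. With an intensity trend 1594 genes and 4715 probesets passed, 13 list genes higher and 8 lower, and 1 S100 gene, S100A16, and 1 S100 probeset were called lower. With the brightest probeset 122 genes passed, with 5 list genes higher and 0 lower, and the filter at the table's median left 0 list genes lower. The labels number the replicates alike and the design text speaks of pairs without saying what they share. Deviations of mimic and control arrays of the same number correlated with r = 0.435 over genes. With a replicate block 498 genes and 1147 probesets were called, and 4 S100 genes were called higher, with S100A14 added. The cause of these changes was not tested.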
